A study of Mus musculus with 72 samples.

Results

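The 10 genes described here code for subunits of the Polycomb repressive complexes and were chosen by symbol, as 10 of the 51826 genes in the count files. Ezh2, Suz12 and Eed form the core of Polycomb repressive complex 2 (PRC2), and Jarid2 and Mtf2 are accessory subunits of it. Rnf2, Ring1, Cbx7, Pcgf6 and Phc1 belong to Polycomb repressive complex 1 (PRC1). The mRNA of each was followed through the nucleus, the cytosol and the membrane fraction of mouse embryonic stem cells by its read counts and by its share of newly made RNA.

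Polycomb complexes keep developmental genes silent. PRC2 methylates histone H3, through the enzyme EZH2 with its partners SUZ12 and EED, and PRC1 ubiquitinates histone H2A through RING1A and RING1B. In embryonic stem cells both complexes sit at CpG-rich promoters of lineage genes, where accessory subunits such as JARID2, MTF2 and PCGF6 help to place them and CBX7 reads the methyl mark.

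E14TG2a, an established mouse embryonic stem cell line, was grown in 2i + LIF medium, which holds cells in the naive state. All cultures were labeled with 4-thiouridine (4sU), a uridine analog. After alkylation it appears in the reads as a T-to-C (T2C) conversion, the mark of RNA made while the analog was present. Each culture was divided by detergents into nucleus, cytosol and membrane (largely endoplasmic reticulum), with a whole-cell sample, and poly(A) RNA was sequenced from 72 libraries, 18 per fraction. Labeling lasted 15 and 30 min in replicates 1 and 2, 20 min in replicates 1 to 4, 40 min in replicates 3 and 4, and 60 and 120 min in replicates 3 to 6. The labels give 500 µM 4sU up to 40 min and 100 µM at 60 and 120 min. The methods name no replicates, but together with the libraries kept for the published shares they imply the higher dose for replicates 3 and 4 at 60 and 120 min. This conflict was not resolved here. The 120 min libraries of replicates 3 and 4 were left out of the labeling results, so that 64 libraries remained (16 per fraction). Unlabeled cultures were not analysed here.

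The number of reads on genes per library lay between 13185351 and 52975732 over the 72 libraries. Pluripotency markers were present in each fraction (10 of 10 at 1 TPM or more, TPM being read counts per exon length scaled to a common total), and markers of primitive endoderm, mesoderm, neural and feeder cells summed to between 0.111 and 12.9 TPM. Nuclear, membrane and cytosolic marker RNAs were each higher in their own fraction than in both others (5 of 5 in each list). The conversion rate, the chance that a T of new RNA reads as C, lay between 2.07 and 12.2%. At 60 min it was 5.83 to 8.29% in replicates 3 and 4 and 2.38 to 3.99% in replicates 5 and 6. At 120 min it was 8.83 to 12.2% and 3.26 to 3.955%. Whether dose accounts for this split was not tested. Some libraries stood apart. In whole-cell libraries of replicate 6 the median new share over all genes was 0.374 at 60 min and 0.175 at 120 min, against 0.219 and 0.387 in replicate 5, which goes against their labels, so whole-cell shares entered no test and were used only for the likeness of labeling patterns, given with and without them. The nuclear library of replicate 4 at 60 min had a median share of 0.193, below the 0.223 to 0.275 of the other nuclear libraries at that time.

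In whole cells the 10 genes spanned a wide range of levels on a per-length scale (TPM, 16 libraries). Mtf2, which brings PRC2 to unmethylated CpG islands, had the highest median with 195 TPM (82.0 to 276), followed by Jarid2 with 173, Eed with 170, Phc1 with 166 and Suz12 with 151 TPM. These neighbours were not well separated: Mtf2 exceeded Jarid2 in 12 of 16 libraries, and Jarid2 exceeded Eed in 6 of 16. A lower group held Cbx7 with 92.1, Rnf2 with 86.2 and Ezh2 with 73.5 TPM, and within it each exceeded the next in 9 of 16 libraries. Pcgf6 (39.5 TPM) lay below Ezh2 in 16 of 16 libraries. Ring1, which codes for the second RING ligase of PRC1, had 9.75 TPM and lay below Pcgf6 in 16 of 16. It ranked at the 30.9th percentile of 11381 genes, whereas Mtf2 ranked at the 94.5th, and its shares rest on the fewest T positions.

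Members of both PRC2 and PRC1 were called in either direction between nucleus and cytosol. Levels between fractions were compared as CPM (counts scaled to library size, with TMM factors), over 16 libraries per fraction, and a gene was called when its log2 ratio passed 0.5 in size at an adjusted p under 0.05 (edgeR's quasi-likelihood test, Benjamini-Hochberg over 18380 genes). Of the 10 genes, 2 were called higher in the nucleus (36.9% of all genes tested) and 3 were called lower (27.7% of all). The genes called were higher in the nucleus in 57.2% of cases, and in 72.7% without the filter on low counts. The calls of Jarid2, Cbx7 and Rnf2 held in each alternative. That of Ezh2 ended without the filter (−0.495) and within replicates 5 and 6 (−0.48). That of Pcgf6 ended without the filter (−0.35), with all 18 libraries per fraction (−0.44), without replicate 2 (−0.40) and within replicates 1 and 2 (−0.46). Scaling fixes these ratios only relative to other genes, and the all-gene median was 0.10. The fit averaged over labeling times. Each library pools many cells, so that fewer cells with an mRNA and less of it per cell cannot be told apart.

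Within PRC2, Jarid2 and Ezh2 stood at opposite sides. Jarid2 codes for a DNA-binding subunit without catalytic activity. Its nuclear level ran from 515 to 1071 CPM (median 736) and its cytosolic level from 257 to 404 CPM (median 285), so the groups did not overlap. The log2 ratio was 1.21 (SE 0.13, adjusted p = 1.4e-10 by edgeR's quasi-likelihood test), and the nucleus was higher in 16 of 16 cultures. Ezh2, the methyltransferase, had 114 to 196 CPM in the nucleus (median 150) and 169 to 492 CPM in the cytosol (median 221). Its log2 ratio was −0.77 (SE 0.13, adjusted p = 2.7e-06 by edgeR), with the nucleus below the cytosol of the same culture in all 16. Suz12 (−0.21, SE 0.11), Eed (−0.48, SE 0.13) and Mtf2 (−0.13, SE 0.11) were not called. Suz12 and Mtf2 changed sign with the replicate pair, at 0.04 and 0.32 in replicates 1 and 2 and −0.38 and −0.42 in replicates 3 and 4. Eed followed the same order with 0.02 and −0.91. Ratios within a pair come from a separate fit of that pair with its own TMM factors. They can therefore differ from ratios of the CPM given here, which are on the scale of the pooled fit.

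In PRC1, Cbx7 and Rnf2 formed the contrast. Cbx7, the chromodomain subunit of canonical PRC1 in stem cells, had 197 to 480 CPM in the nucleus (median 364) and 136 to 241 CPM in the cytosol (median 164). The log2 ratio was 0.90 (SE 0.08, adjusted p = 4.8e-13 by edgeR), higher in the nucleus of 16 of 16 cultures, although the lowest nuclear libraries, of replicates 5 and 6, overlapped the cytosolic ones of replicates 1 and 2. Rnf2, which codes for RING1B, the main ligase, had 71.0 to 122 CPM in the nucleus and 160 to 366 CPM in the cytosol without overlap. Its log2 ratio of −1.12 (SE 0.11, adjusted p = 2.7e-11 by edgeR) lay at the 9.6th percentile of all genes. Pcgf6, of a variant PRC1, was called lower (−0.63, SE 0.07), and Ring1 was not called (0.09, SE 0.09).

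Phc1, a SAM-domain subunit, depended on the replicate pair. Its pooled log2 ratio was −0.31 (SE 0.11), but it was −0.55 in replicates 1 and 2 and −0.66 in replicates 5 and 6, and 0.62 in replicates 3 and 4 (SE 0.12, adjusted p = 0.00012 by edgeR), where the all-gene median was itself 0.52. On the scale of the pooled fit its cytosolic level was 194 to 313 CPM in replicates 3 and 4, against 432 to 469 and 437 to 466 CPM in the other pairs, without overlap. The nuclear level lay between 276 and 358 CPM. Jarid2, Cbx7, Ezh2 and Rnf2 kept their sign in each pair. The ratio ranged from 0.96 to 1.88 for Jarid2 and from 0.51 to 1.63 for Cbx7. It ranged from −1.002 to −0.48 for Ezh2 and from −1.54 to −0.75 for Rnf2. Each was largest in size in replicates 3 and 4.

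**Figure D1:**
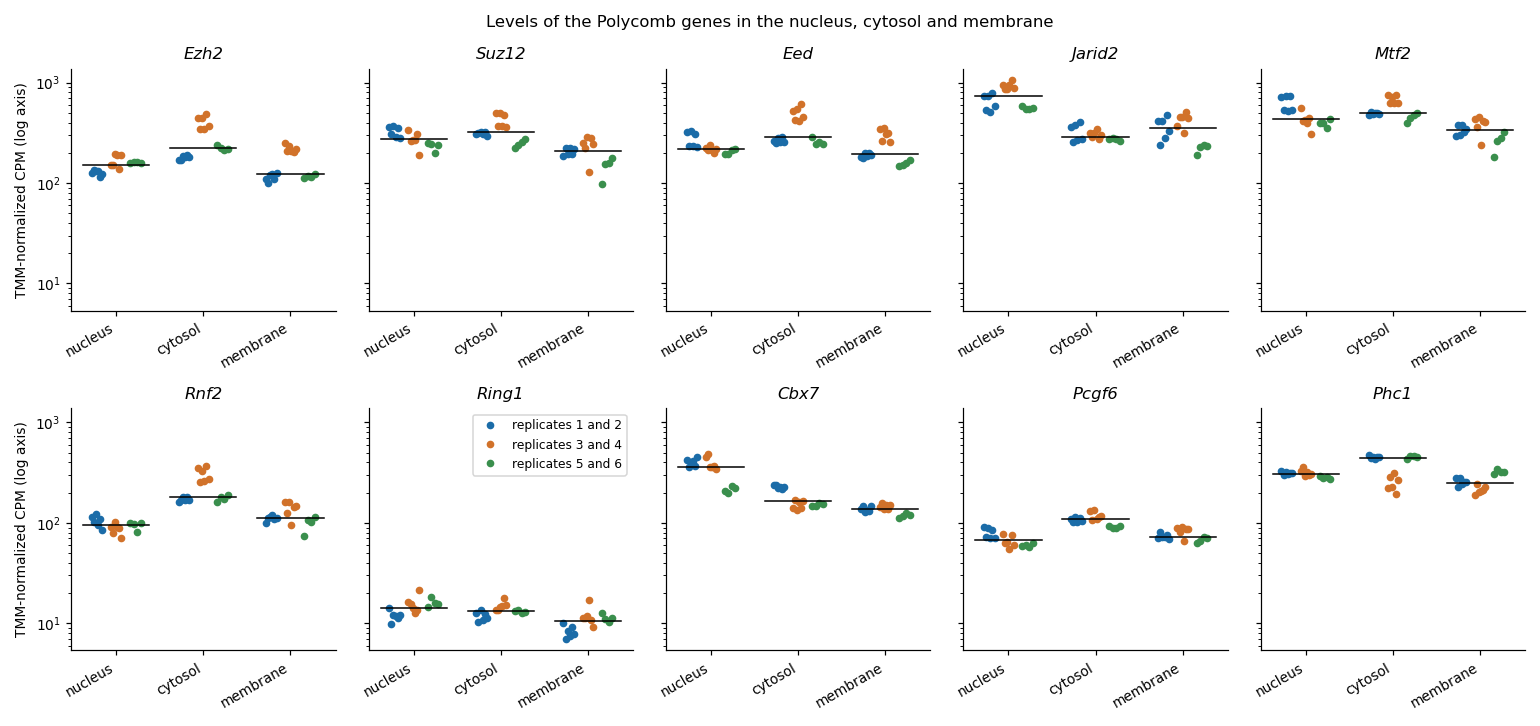
Levels of the 10 genes in the nucleus, cytosol and membrane fraction, as TMM-normalized CPM on a log axis; each point is 1 of 16 libraries per fraction, coloured by replicate pair, and black bars are medians. Jarid2 and Cbx7 are higher in the nucleus than in the cytosol, Rnf2 is lower without overlap, and the cytosolic points of Phc1 split by pair (194 to 313 CPM in replicates 3 and 4, 432 to 469 CPM in replicates 1 and 2).

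Most Polycomb mRNAs were lower in the membrane fraction than in the cytosol. Of the 10 genes, 7 were called lower (28.3% of all genes tested) and 0 were called higher (21.7% of all), with an all-gene median of −0.31. Rnf2 had the lowest ratio (−0.88, SE 0.11, 5.0th percentile), followed by Ezh2 (−0.82, SE 0.13), Suz12 (−0.76, SE 0.11) and Mtf2 (−0.73, SE 0.11). The membrane level of Rnf2 was 74.7 to 161 CPM, against 160 to 366 CPM in the cytosol, so the groups overlapped at their edges. Ezh2, Suz12, Eed, Mtf2, Rnf2 and Pcgf6 were lower in the membrane than in the cytosol of the same culture in all 16 cultures. The share of all genes lower in each culture was not counted, and 65.6% of all genes had a pooled ratio below 0. Jarid2 was the exception, with 190 to 507 CPM in the membrane and a log2 ratio of 0.13 (SE 0.13), which lay at the 69th percentile. In replicates 3 and 4 alone Jarid2 was called higher in the membrane (0.71, adjusted p = 5.5e-05 by edgeR). The number of calls depended on the settings: 4 were called with DESeq2, 3 without the filter on low counts and 1 within replicates 1 and 2. Lower calls over all genes also fell, from 5207 of 18380 to 2410 with DESeq2. They were 1439 of 34669 without the filter and 1704 of 17067 within replicates 1 and 2. The genes called over the whole table were higher in the membrane in 43.4% of cases, against 64.4% with DESeq2 and 77.0% without the filter. With any 1 replicate left out 3 or 4 of the 10 were called, among them Ezh2, Suz12 and Rnf2 each time. Over all genes 1831 to 2363 were then called lower, and the all-gene median lay between −0.16 and −0.10. The ratios within a culture rest on the same scaling as the main fit.

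Between 120 and 20 min of labeling 1 of the 10 genes was called. Libraries of 120 and 20 min were compared within replicates 3 and 4, 2 against 2, since only these replicates hold both times. The 2 times of a replicate are separate cultures. In whole cells 0 of the 10 genes were called in either direction (0.0712% of all genes tested called higher and 0.0415% lower by edgeR). Over all genes 12 were called higher and 7 lower by edgeR, against 45 and 73 by DESeq2, 70 and 157 without the filter and 10 and 21 with the replicate block. Of all 16858 genes, 1656 had an unadjusted p under 0.05. In the nucleus 1 gene, Cbx7, was called lower (1.35% of all) and 0 were called higher (1.56% of all). Its nuclear level was 526 and 562 CPM at 20 min and 320 and 299.7 CPM at 120 min, and the log2 ratio was −0.81 (SE 0.14, adjusted p = 0.0092 by edgeR). With 1 library against 1, where the other groups of the fit supply the spread, it was −0.76 without replicate 4 (adjusted p = 0.060 by edgeR) and −0.94 without replicate 3 (adjusted p = 0.030 by edgeR). In whole cells Cbx7 had 241 and 222 CPM at 20 min and 167 and 188 CPM at 120 min (−0.38, SE 0.13, adjusted p = 0.32 by edgeR). Mtf2 showed the next lowest nuclear ratio with −0.47 (SE 0.25, adjusted p = 0.27 by edgeR). By the labels these libraries differ in dose as well as in time, which cannot be told apart. As stated above, the methods and the libraries kept instead imply the higher dose for replicates 3 and 4 at 120 min. The paper left out higher-dose samples from 120 min on, after finding many genes changed in whole cells against unlabeled ones. Whether the lower nuclear level of Cbx7 reflects time, dose or such an effect of labeling was not tested.

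At short labeling most Polycomb genes had a higher share of new RNA in the nucleus than in the cytosol. The new share is T2C counts over T counts, scaled by the conversion rate of the library, without subtraction of background. At 20 min (4 nuclear against 4 cytosolic libraries, 12373 genes with at least 400 T counts) 8 of the 10 genes were called higher in the nucleus (56% of all genes tested) and 0 lower (0.202% of all). Suz12 had the highest ratio. Its exonic share was 0.1095, 0.134, 0.191 and 0.145 in the nucleus of replicates 1 to 4 and 0.0258, 0.0295, 0.0278 and 0.0265 in the cytosol, without overlap. The log2 ratio of 2.40 (SE 0.34, adjusted p = 2.5e-10 by edgeR) lay at the 88th percentile of all genes, whose median was 1.52. Rnf2 (2.301), Pcgf6 (2.22), Phc1 (2.21), Ring1 (2.09), Mtf2 (2.00), Eed (1.95) and Ezh2 (1.72) followed. Ring1 carried the largest error (SE 0.90) and lost its call in 4 alternatives, among them those without replicate 2 and without replicate 4.

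Jarid2 and Cbx7, the 2 genes with higher nuclear levels, were the 2 that were not called. The nuclear exonic share of Jarid2 was 0.0279, 0.0375, 0.0544 and 0.0489 in replicates 1 to 4, and its cytosolic share was 0.0279, 0.0290, 0.0390 and 0.0382. The values overlapped, and the log2 ratio of 0.33 (SE 0.34, adjusted p = 0.39 by edgeR) lay at the 11th percentile. Cbx7 had a ratio of 0.33 (SE 0.31), with nuclear shares of 0.172 to 0.200 and cytosolic shares of 0.112 to 0.180. Its shares hold T2C reads that were present in the last exon at the shortest labeling, described below.

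At 60 min 6 of the 10 genes were called higher in the nucleus (30.5% of all genes tested, 4 against 4 libraries of replicates 3 to 6) and 0 lower (1.3% of all). Ring1 led with nuclear shares of 0.287, 0.290, 0.412 and 0.212 in replicates 3 to 6 and cytosolic shares of 0.0316, 0.0545, 0.0998 and 0.0455. The log2 ratio was 2.44 (SE 0.48, adjusted p = 0.00011 by edgeR, 98th percentile), where the median of all genes was 0.68. Phc1 (1.38), Pcgf6 (1.15), Ezh2 (1.09), Cbx7 (1.04) and Eed (0.94) were also called, whereas Suz12 (0.67, SE 0.34), Mtf2 (0.56, SE 0.33) and Rnf2 (0.36, SE 0.34) were not. The value of Cbx7 includes the conversions of its last exon, described below. With the cultures as a replicate block Suz12 was called as well (0.76, adjusted p = 0.038 by edgeR). Without replicate 3 only 2 of the 6 calls were left, those of Ring1 and Phc1, and 3 were left without replicate 4. Over all genes 1345 of 13124 were called higher without replicate 3 and 2200 of 12600 without replicate 4, against 3811 of 12507.

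Jarid2 was the only one of the 10 with a lower nuclear than cytosolic share at 60 min. Its nuclear shares were 0.123, 0.0771, 0.138 and 0.133 in replicates 3 to 6 and its cytosolic shares 0.120, 0.0932, 0.238 and 0.205. The pooled log2 ratio was −0.48 (SE 0.34, adjusted p = 0.28 by edgeR) at the 6.0th percentile. Within replicates 5 and 6 it was called lower (−0.71, adjusted p = 3.9e-05 by edgeR). In that pair 1018 of 13690 genes were called lower, and the all-gene median was 0.23. With raw T2C to T ratios, without division by the conversion rate, the ratio of Jarid2 over replicates 3 to 6 was 0.00. Cytosolic shares at 60 min split by pair without overlap for 9 of the 10 genes, all but Ring1. For Suz12 they were 0.1225 and 0.1097 in replicates 3 and 4 and 0.300 and 0.277 in replicates 5 and 6. The cytosolic median over all genes split as well, with 0.0922 and 0.0928 against 0.205 and 0.181. The split was thus not particular to the 10 genes, and the share of all genes without overlap was not counted. Pair and any difference of dose cannot be told apart.

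The time courses differed among subunits of one complex. Ezh2 had the lowest nuclear share of the core PRC2 genes at each time. It went from 0.0169 ± 0.0010 (SD, n = 2) at 15 min to 0.138 ± 0.041 (n = 4) at 60 min and 0.302 ± 0.048 (n = 2) at 120 min, and stayed between the 14th and 29th percentile of all genes. Suz12 went from 0.0474 ± 0.0174 to 0.321 ± 0.088 and 0.566 ± 0.013, and Eed lay between them with 0.431 ± 0.012 at 120 min. In the cytosol at 120 min Mtf2 (0.533 ± 0.023), Rnf2 (0.508 ± 0.034) and Suz12 (0.491 ± 0.024, n = 2 each) were highest. Ezh2 (0.232 ± 0.009) and Ring1 (0.263 ± 0.036) were lowest. The median of all genes was 0.369 there.

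**Figure D2:**
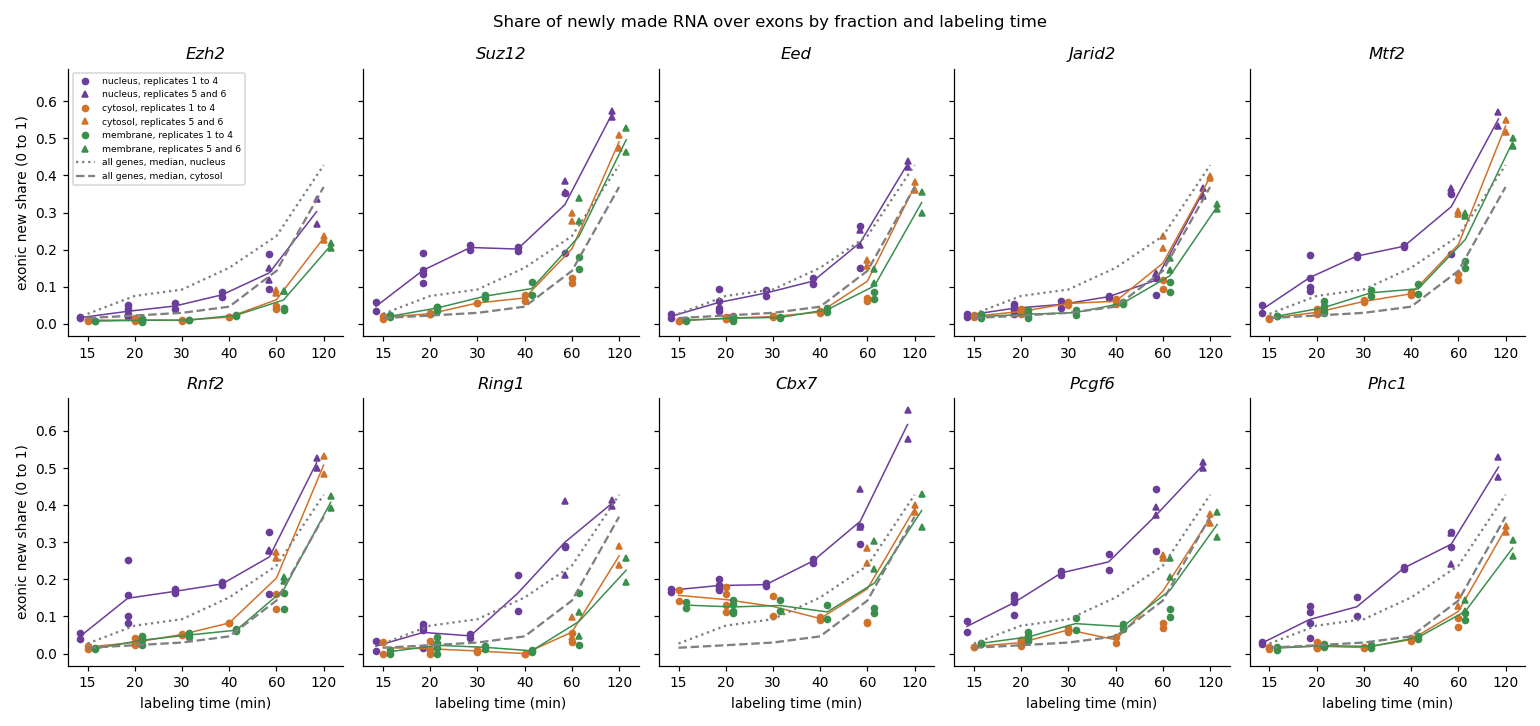
Exonic new share (T2C to T ratio divided by the conversion rate, 0 to 1) of the 10 genes against labeling time, on an evenly spaced axis; points are libraries, circles for replicates 1 to 4 and triangles for 5 and 6, coloured lines join means, and grey lines give the median of all genes. Nuclear points of Suz12 lie above the cytosolic ones at 20 min (0.1095 to 0.191 against 0.0258 to 0.0295), those of Jarid2 do not, and Cbx7 starts at 0.171 in the nucleus at 15 min. The shares of Cbx7 include the early conversions of its last exon and cannot be read as new RNA alone.

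The shares in membrane and cytosol were compared at 60 min (4 against 4 libraries). Of the 10 genes 0 were called higher (0.016% of all genes tested) or lower (5.68% of all). The log2 ratios ran from −0.34 (SE 0.32) for Jarid2 to 0.63 (SE 0.66) for Ring1, with an all-gene median of −0.10. In the same culture Jarid2 was lower in the membrane in 4 of 4 cultures, and Suz12 was at or above the cytosol in 4 of 4. Of all 12521 genes, 1365 had an unadjusted p under 0.05 by edgeR.

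Introns, which mark unspliced RNA, had higher new shares than exons of the same nuclear libraries. At 20 min 9 of the 10 genes were called higher over introns than over exons (85.3% of all genes tested) and 0 lower (0.106% of all). Jarid2 showed the largest ratio of the 10. Its intronic share was 0.621, 0.760, 0.844 and 0.747 in replicates 1 to 4, against exonic shares of 0.0279 to 0.0544, and the log2 ratio of 4.14 (SE 0.38, adjusted p = 1.2e-24 by edgeR) is a 17.6-fold difference at the 97th percentile. Ezh2 followed with 3.54 (SE 0.42, 11.6-fold, 92nd percentile) and Eed with 2.59 (SE 0.38). Phc1 (2.07), Rnf2 (1.86), Suz12 (1.82), Ring1 (1.68), Mtf2 (1.21) and Pcgf6 (1.18) lay around or below the all-gene median of 2.05.

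Introns of Jarid2 had the highest share of the 10 at 15 min. Their nuclear share was then 0.476 ± 0.023 (SD, n = 2; 97th percentile, all-gene median 0.136), and at 40 min it was 0.986 ± 0.026. The exons of Jarid2 stood at 0.0733 ± 0.0031 at that time, the 15th percentile of all genes. Introns of Suz12 (0.246 ± 0.011) and Rnf2 (0.248 ± 0.029) came next at 15 min. Introns of Cbx7 had low shares, with 0.05003 ± 0.00486 at 15 min and 0.476 ± 0.050 (n = 4) at 60 min, the 6.3th percentile. In the nucleus the ratio of intronic to exonic T counts was highest for Eed (median 1.05 over 16 libraries) and Ezh2 (0.977) and lowest for Rnf2 and Jarid2 (0.218 each), where the median of all genes was 0.404.

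**Figure D3:**
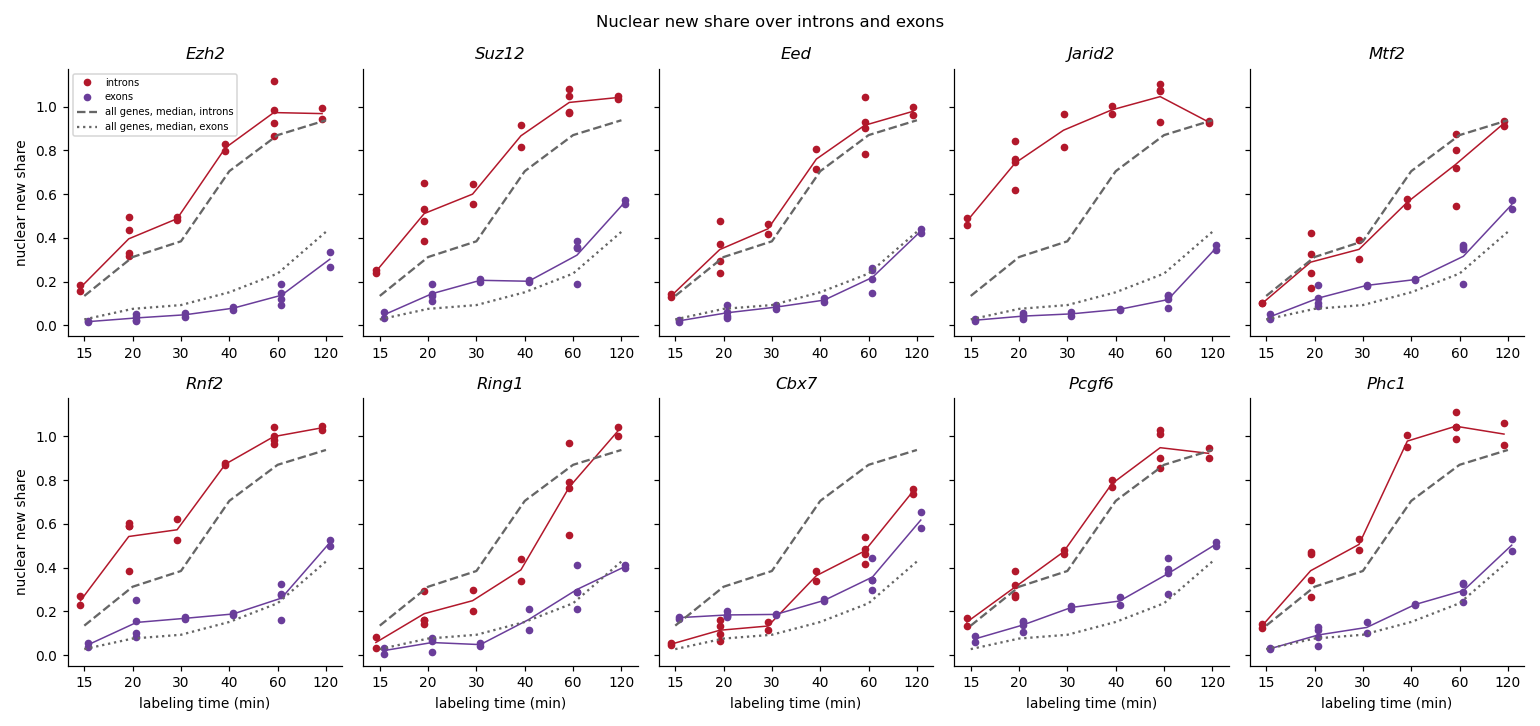
Nuclear new share over introns (red) and exons (purple) of the 10 genes against labeling time, on an evenly spaced axis; points are libraries, lines join means, and grey lines give the medians of all genes. Introns of Jarid2 begin at 0.476 at 15 min with exons at 0.0232, whereas for Cbx7 exons lie above introns up to 30 min.

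In 6 of the 10 genes exons near the 5′ end had lower nuclear shares than exons near the 3′ end in nearly every library. Each gene was divided into 3 parts of equal length, and T2C and T counts were summed over the exons of the first (5′) and last (3′) part. In Suz12, at 30 min, the 5′ part had shares of 0.0306 and 0.0407 and the 3′ part 0.215 and 0.227 in the 2 libraries. The 5′ part lay below the 3′ part in 16 of 16 nuclear libraries of Suz12, Eed and Pcgf6 and in 15 of 16 of Ezh2, Jarid2 and Phc1. At 30 min Eed had means of 0.0159 and 0.130, Pcgf6 0.0326 and 0.260, and Phc1 0.0145 and 0.138 (5′ and 3′ part, n = 2). At 120 min the means were 0.4657 and 0.5055 for Phc1 and 0.376 and 0.575 for Suz12, with the 5′ part lower in 2 of 2 libraries of Phc1. Jarid2 is the longest of the 10 genes, at 192 kb. Its only counted 5′ exon had a share of 0.149 (0.114 and 0.184) at 120 min, against 0.362 over the 15 exons of the 3′ part. Shares of the 5′ part of Mtf2, Rnf2 and Ring1 rest on as few as 202 T counts and varied from 0 to 0.724. There the 5′ part was lower in 13, 11 and 12 of 16 libraries, and its mean was higher for Mtf2 at 60 min (0.387 against 0.326) and for Rnf2 at 20, 30 and 40 min (0.2106 against 0.169 at 30 min). Cbx7 had no counted exon there. Other genes were not cut in this way. The paper reports, for exons across genes, a nuclear labeled share that declines with distance from the 3′ end, mainly at short labeling. A difference of this kind is thus not particular to the 10 genes.

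**Figure D4:**
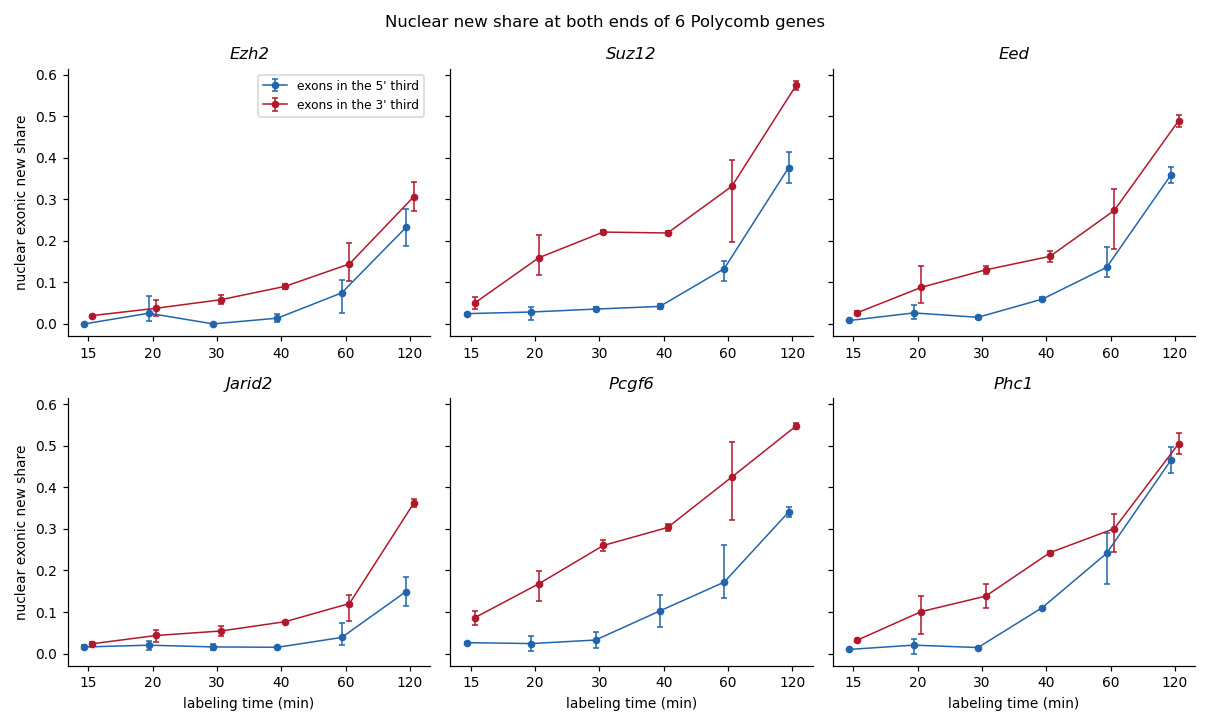
Nuclear exonic new share over exons of the 5′ part (blue) and the 3′ part (red) of 6 Polycomb genes against labeling time, on an evenly spaced axis; points are means of 2 or 4 libraries and bars run from the lowest to the highest library. At 30 min the 5′ means of Suz12, Eed, Pcgf6 and Phc1 lie between 0.0145 and 0.0357 and the 3′ means between 0.130 and 0.260.

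Cbx7 had many T2C conversions at the shortest labeling. At 15 min in the cytosol 0.356 and 0.344% of its exonic T positions were read as C in replicates 1 and 2, where the median gene had 0.0355% and 83 of 11461 genes had more. The conversions sat in the last exon (chr15:79915810-79918476, GRCm38, minus strand, 2667 bases, mostly 3′ untranslated region), which held most T counts of the gene. There the rate was 0.374 and 0.357%, against 0.0115 and 0.0419% over the 5 exons upstream, from 1 and 3 converted bases. In the cytosol the last exon was at 0.392 and 0.548% at 40 min, at 0.509 to 0.686% at 60 min and at 1.264 and 1.37% at 120 min (replicates 5 and 6). In the nucleus it went from 0.399 and 0.4597% at 15 min to 1.574 and 1.482% at 40 min and 2.51 and 2.298% at 120 min. Over the upstream exons the nuclear share was 0.0257 and 0.0193 at 15 min and 0.553 and 0.537 at 120 min. When these exons alone were counted, an alternative chosen after seeing the data, introns of Cbx7 exceeded exons at 20 min (log2 ratio 1.82, SE 0.46, adjusted p = 0.00017 by edgeR). Over all exons the ratio was −0.69 (SE 0.35, adjusted p = 0.055 by edgeR, 0.40th percentile of all genes), or −0.76 with a replicate block (adjusted p = 0.00068 by edgeR), so the sign rests on the last exon. The nucleus to cytosol ratio at 60 min was 1.57 (SE 0.53) over the upstream exons and 1.04 over all. Apobec3, on the opposite strand, overlaps the end of Cbx7 and had 40.7% as many reads as Cbx7. Its part in the conversions was not tested, nor was that of a variant of the E14TG2a line missing from the list of known variants. In replicates 3 and 4 the cytosolic share of the last exon fell with labeling time. It was 0.119 and 0.137 at 20 min, 0.0958 and 0.105 at 40 min and 0.0873 and 0.0893 at 60 min. The all-gene median went from 0.0222 and 0.0278 at 20 min to 0.0922 and 0.0928 at 60 min in the same replicates. In replicates 5 and 6 the last exon rose from 0.289 and 0.251 at 60 min to 0.388 and 0.407 at 120 min. The share of Cbx7 over all exons can therefore not be read as new RNA alone.

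**Figure D5:**
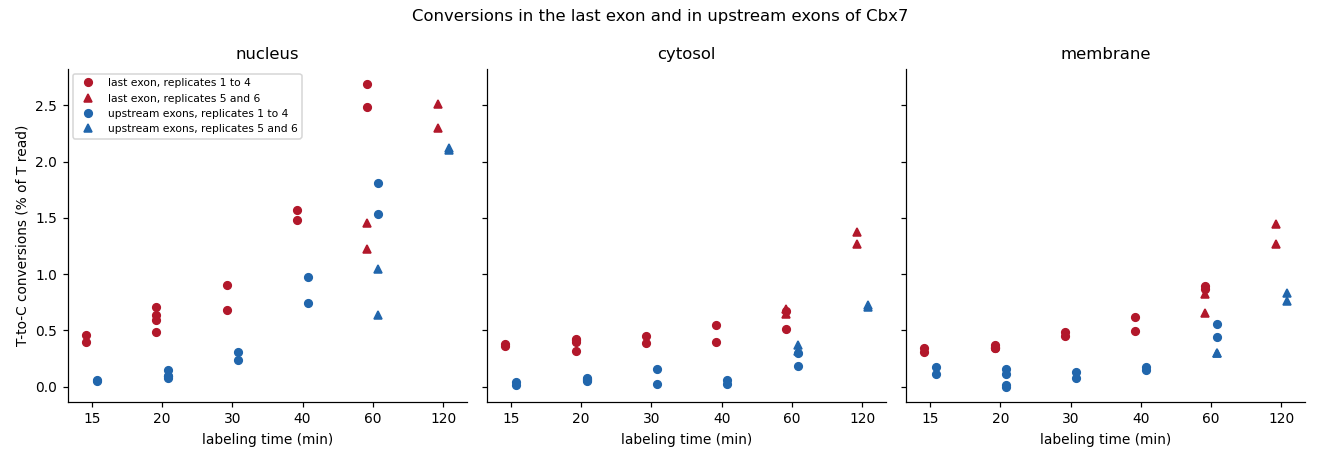
Percent of T positions read as C, before division by the conversion rate, in the last exon of Cbx7 (red) and in its 5 upstream exons (blue) against labeling time, on an evenly spaced axis, by fraction; points are libraries, circles for replicates 1 to 4 and triangles for 5 and 6. At 15 min the cytosolic last exon is at 0.374 and 0.357% while upstream exons are at 0.0115 and 0.0419%.

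Suz12 and Mtf2 had the most similar labeling patterns of any pair among the 10. The root mean square difference of log2(share + 0.01) over the 64 libraries was 0.177 between them, smaller than to the nearest gene outside the 10 (0.208 between Suz12 and Ctcf, 0.180 between Mtf2 and Aff4). The median over 11451 genes was 1.08 for Suz12 and 1.06 for Mtf2. Without whole-cell libraries (48 libraries, an alternative chosen after seeing the data) the difference between Suz12 and Mtf2 was 0.1585, against 0.2006 to Ctcf and 0.1744 to Aff4. With only the whole-cell libraries of replicate 6 left out it was 0.1794. The libraries share fraction, time and depth, so a low value is a description. The other nearest genes were Gtf2i for Ezh2 (0.29), Uba3 for Eed (0.24), Ddx24 for Jarid2 (0.26), Cmtm4 for Rnf2 (0.24), Itpk1 for Pcgf6 (0.25) and Hcfc1 for Phc1 (0.21). For Ring1 (Htt, 0.67) and Cbx7 (Jund, 0.44) the nearest gene was less similar. Without whole-cell libraries the nearest gene was Edc4 for Ring1 (0.63) and Dctd for Cbx7 (0.38).

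The 3′ untranslated regions were searched on the transcript strand for TGTANATA, the octamer bound by Pumilio proteins, which are known to destabilize mRNA. The search followed from the likeness of Suz12 and Mtf2 and was chosen with their values known. In the annotated transcripts with a 3′ untranslated region Suz12 had 3 matches, Mtf2 had 4 and Jarid2 had 1, and Ezh2, Eed, Rnf2, Ring1, Cbx7 and Phc1 had 0. Pcgf6 was not searched. Among 3′ untranslated regions of similar length 33.6% held at least 1 match for Suz12, 34.8% for Mtf2 and 30.9% for Jarid2, and 21.6% of all 21037 regions did. How many regions hold 3 or 4 matches was not counted. The AU-rich nonamer TTATTTATT was found once, in Mtf2 (11.1% of regions of similar length). The windows read 5′ to 3′ from GRCm38, plus strand, are shown with the octamer in capitals, and a match is not evidence of binding. The 3 of Suz12 lie at chr11:80033295-80033324, chr11:80033412-80033441 and chr11:80034068-80034097. The first 3 of Mtf2 lie at chr5:108107313-108107342, chr5:108107410-108107439 and chr5:108107544-108107573, and that of Jarid2 at chr13:44921001-44921030. The window of the fourth match of Mtf2, chr5:108107560-108107589, overlaps that of the third and is not shown. All are exonic.
Suz12 site 1: tcaatgctgcTGTAAATActggtattttta
Suz12 site 2: gatttataagTGTAAATActgatttggctg
Suz12 site 3: caaatgatttTGTACATAaagttcaataat
Mtf2 site 1: aaacagatcaTGTAGATAgcacaagtattt
Mtf2 site 2: taaagtgcagTGTATATAatgtctactgaa
Mtf2 site 3: tgcatgtacaTGTATATAcacacatgtgta
Jarid2: ccatccctttTGTACATActcctgtaaatt
The copies in Suz12 and Mtf2 differ in the free base of the octamer. Jarid2, with 1 copy, had a lower nuclear exonic share at 60 min (0.118 ± 0.028, n = 4) than Suz12 (0.321 ± 0.088) and Mtf2 (0.316 ± 0.085), and Rnf2, with 0 copies, had 0.261 ± 0.070. Genes with 0 copies differed among themselves, Ezh2 being lower than Rnf2 at that time. Whether the number of copies bears on the share was not tested.

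Other genes of the pathway were called in both directions between fractions. Among 8 further PRC2 genes, 1 was called higher in the nucleus than in the cytosol and 4 lower. Among 21 further PRC1 genes, 4 were called higher and 5 lower, and of 6 enzymes that remove or oppose Polycomb marks 2 were called higher (36.9% of all genes higher, 27.7% lower). The largest ratios belonged to Phf1, a PRC2 accessory gene (2.43, SE 0.15), and Bcor, of a variant PRC1 (1.89, SE 0.12). In the membrane fraction 6 of 8, 14 of 21 and 2 of 6 were called lower than in the cytosol (28.3% of all), calls that were not repeated under other settings for these lists. Bcor was called higher (1.24, SE 0.12), while Pcgf2 had the lowest called ratio (−0.96, SE 0.08). For the share at 20 min 6 of 8, 14 of 20 and 6 of 6 tested genes were called higher in the nucleus than in the cytosol (56% of all), with Bmi1 (3.06, SE 0.60) and Bap1 (2.56, SE 0.44) ahead, and the ratio was above 0 for 8, 20 and 6 of them. At 60 min 4 of 8, 4 of 20 and 2 of 6 were called higher (30.5% of all), led by Phf1 (2.26, SE 0.52) and Bap1 (1.62, SE 0.36). Introns were called above exons for 7 of 7, 18 of 19 and 6 of 6 tested genes, where 85.3% of all genes were, led by Pcgf5 (3.13, SE 0.57) and Pcgf1 (2.95, SE 0.58). Genes of these lists that did not enter a test are left out of its counts. None of the tested genes was called in the comparisons of 120 with 20 min or of membrane with cytosol share, by edgeR's quasi-likelihood test.

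The 10 genes lie on 9 chromosomes of GRCm38. PRC2 genes are Ezh2 (chr6:47530139-47595341), Suz12 (chr11:79993106-80034123), Eed (chr7:89954654-89980983), Jarid2 (chr13:44729474-44921643) and Mtf2 (chr5:108065674-108109004). PRC1 genes are Rnf2 (chr1:151458004-151500955), Ring1 (chr17:34020792-34024680), Cbx7 (chr15:79915807-79971119), Pcgf6 (chr19:47033617-47050906) and Phc1 (chr6:122317731-122340561). Besides Cbx7, Rnf2 overlaps Trmt1l and Mtf2 overlaps Tmed5 on the opposite strand, with 22.3 and 11.4% as many reads. The libraries were strand-specific, and the methods mention default parameters without spelling out the strand option of the counting, so the share of reads between these neighbours is uncertain.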

How the data were processed

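Per the labels and the study's methods, the authors aligned strand-specific poly(A) libraries with STAR 2.7.6 to GRCm38 and deposited raw counts per gene from HTSeq 0.11.1. They deposited T and T2C counts per exon, gene and introns, after leaving out known variants, and, as a fraction, each library's conversion rate, fitted with a mixture of binomials. The authors also deposited the new share, a ratio (T2C over T, scaled by the conversion rate). Computed here were TMM-scaled levels, TPM over exon length and shares for genes with at least 400 T counts, with edgeR 4.0.16 in R 4.3.3 (quasi-likelihood test, filterByExpr; for shares T2C counts with the log of T counts times rate as offset), and with DESeq2 1.42.0 and limma 3.58.1 as alternatives. Tested on simulated data, the share test at 20 min found 90 of 100 genes given a log2 change of 1 among 12373 genes. The simulated libraries held no differences between replicate pairs or cultures, and only genes with more T2C counts were changed. Recovery may be lower in the real data, where the SE of the 10 genes in this test ran from 0.31 to 0.90. Fractions of a replicate and time come from one culture, per the labels' protocol, and deviations from group means correlated with r over 0.1 in 16 of 18 pairs of libraries (−0.29 to 0.79). The block on cultures was an alternative. Of 51826 genes 51633 matched GENCODE. Reads carry no molecular identifiers, so counts are not independent molecules. The members, gene lists and tests were chosen with earlier results of these data known. All 10 genes are named in each comparison, other pathway genes by the 2 largest called ratios per comparison. Amino acid sequences were not used here.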

Additional observations from a re-analysis of the deposited data

Results flagged for a closer look

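In each fraction, labeling time and measure with 4 libraries, the level and shares of each gene were searched for a library far from the other 3 (Dixon's criterion at 95%, which chance passes in about 1 of 20 groups). It was met in 6 of 180 groups. Replicate 4 had the lowest nuclear exonic share at 60 min for Suz12 (0.191, the others 0.353 to 0.384) and for Mtf2 (0.189, the others 0.350 to 0.366), in the library whose median over all genes was also lowest (0.193). Jarid2 was highest in the cytosol of replicate 1 at 20 min (95.6 TPM, the others 77.9 to 80.7) and of replicate 4 at 60 min (80.7 TPM, the others 57.0 to 59.8). The nuclear intronic share at 20 min was lowest in replicate 1 for Rnf2 (0.385, the others 0.591 to 0.602) and highest in replicate 3 for Ring1 (0.294, the others 0.140 to 0.162).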

How the results depend on the processing

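Of 441 repeats of single-gene results that were called, 364 kept direction and call, 71 kept the direction without the call and 6 changed sign. Of 442 repeats of results that were not called, 382 were unchanged in both, 19 became called and 41 changed sign. Counts are of genes called in both directions unless given for the 10 genes. For the level of membrane against cytosol, 9196 genes and 7 of the 10 genes (lower) were called. This became 5982 to 6490 and 3 to 4 leaving out each replicate, 6108 and 1 within replicates 1 and 2, 5995 and 4 (with 1 of the 10 higher) within replicates 3 and 4, 5311 and 4 within replicates 5 and 6, 4 of the 10 with DESeq2, 3 without a count filter and 4 with all 18 libraries. Over all genes 2410 were called lower with DESeq2, 1439 without a filter and 2358 with all 18 libraries, against 5207. For nucleus against cytosol 1 of the 10 was called lower without the filter, against 3. Over all genes 3508 of 34669 were called lower without the filter, against 5088 of 18380. The share of called genes that were higher in the membrane was 43.4%, and 64.4% with DESeq2, 77.0% without the filter and 70.96 to 74.3% within pairs. In the nucleus it was 57.2%, and 72.7% without the filter. In whole cells, 120 against 20 min, 19 genes became 118 (DESeq2), 227 (no filter), 31 (replicate block) and 0 (without replicate 3 and without replicate 4, by edgeR, with 1272 and 987 genes at an unadjusted p under 0.05). In the nucleus 518 became 975 (DESeq2), 1242 (no filter), 1803 (replicate block) and 290 to 565 (replicates left out, with 0 to 1 of the 10 lower). For the share of nucleus against cytosol at 20 min, 6948 genes became 3038 after the all-gene median was subtracted (5 of the 10 higher) and 4370 within replicates 1 and 2. At 60 min 3974 became 6426 (raw T2C / T), 6450 (within replicates 3 and 4) and 1477 to 4247 (replicates left out). Of the 10 genes 2 stayed higher after subtraction and 2 to 6 with replicates left out. Within replicates 5 and 6, 1 of the 10 was lower, where 1018 of 13690 genes were. For membrane against cytosol 713 became 399 (limma), 1424 (replicate block), 1896 (within replicates 5 and 6) and 250 to 677 (replicates left out). For introns against exons 9636 became 5220 after subtraction, with 3 of the 10 higher and 2 lower, and 1 of the 10, Cbx7, was lower with the replicate block, within replicates 1 and 2 and, in a range of 0 to 1, with replicates left out. The replicate block changed no other call of the 10 genes than those of Suz12 and Cbx7.

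Changes of sign were as follows. For the level in nucleus against cytosol Suz12 was 0.068 and Mtf2 0.15 without the filter, and Mtf2 was 0.059 with all libraries. Within replicates 1 and 2 Suz12 was 0.037, Eed 0.024, Mtf2 0.32 and Ring1 −0.014, and within replicates 3 and 4 Phc1 was 0.62. With replicates left out Suz12 ranged from −0.34 to 0.026, Mtf2 from −0.32 to 0.15 and Ring1 from −0.0070 to 0.29. For membrane against cytosol Cbx7 was 0.19 and Phc1 0.017 within replicates 3 and 4, and Jarid2 −0.029 and Ring1 0.054 within replicates 5 and 6. For 120 against 20 min without the filter Phc1 was −0.0067 in whole cells and Ring1 −0.021 in the nucleus. With replicates left out Jarid2 ranged from −0.0053 to 0.20 in whole cells, and Ring1 from −0.069 to 0.052 and Ezh2 from −0.0027 to 0.27 in the nucleus. After subtraction of the all-gene median the nuclear to cytosolic share was −1.19 for Jarid2 and −1.19 for Cbx7 at 20 min, and −0.0099 for Suz12, −0.12 for Mtf2 and −0.32 for Rnf2 at 60 min. It was 0.00045 for Jarid2 with raw ratios. The membrane to cytosolic share with raw ratios was 0.082 for Ezh2, 0.12 for Eed and 0.023 for Rnf2, and after subtraction 0.079 for Ezh2. Within replicates 3 and 4 it was 0.21 for Eed and 0.021 for Rnf2, and within replicates 5 and 6 0.038 for Ezh2, −0.026 for Mtf2, −0.18 for Pcgf6 and −0.15 for Phc1. With replicates left out Pcgf6 ranged from −0.11 to 0.19, Phc1 from −0.059 to 0.077 and Ezh2 from −0.089 to 0.053. Introns against exons after subtraction were −0.22 for Suz12, −0.83 for Mtf2, −0.18 for Rnf2, −0.36 for Ring1 and −0.87 for Pcgf6, and over upstream exons Cbx7 was 1.82. Apart from values that follow from the subtraction or the choice of exons, the cause was not tested. With the whole-cell libraries of replicate 6 left out, an alternative chosen after seeing the data, 15 genes and 0 of the 10 were called. Ring1 limits the shares, with as few as 985 intronic T counts in a nuclear library.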
